A study of Oncorhynchus mykiss with 70 samples.

Results

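The follistatin probe of a NanoString panel, named fsta here, was followed through 23 tissues of adult rainbow trout (Oncorhynchus mykiss). It was chosen by name, as 1 of the 49 activin pathway genes on the panel, and all 70 samples were used. In this assay each RNA molecule is captured by a probe with its own colour code, the codes are counted, and no copying step is needed; the study used it to map the pathway over tissues.

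Follistatin is a secreted glycoprotein that wraps around activins, and also around myostatin and Gdf11, and keeps these ligands from their receptors. In mammals it raises muscle mass when supplied in excess, because myostatin restrains muscle growth, and it was first isolated from the gonad as an inhibitor of follicle-stimulating hormone release. Ligands that escape it bind a type II receptor, which activates a type I receptor, and the signal passes through receptor-regulated Smads and the common Smad4 to the nucleus.

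The probe decides which follistatin is counted, so its target is shown first. According to the authors' gene list, trout has 4 follistatin loci, and the probe was designed on fsta2 (LOC100301646, chromosome 6) but also targets fsta1 (LOC100301657, chromosome 11). RefSeq calls these loci fst and fsta. The counts are therefore a sum over both loci, and the share of each cannot be read from them. The loci fstb1 (chromosome 12) and fstb2 (chromosome 5) have no probe on the panel. The target is 100 bases long, and its 65% of G and C is the highest among the 49 targets, which run from 41% to 65% with a median of 49%. Of its 3 forward reading frames, 1 holds no stop codon. It is printed 5′ to 3′ as the authors' probe list gives it.
fsta2 target: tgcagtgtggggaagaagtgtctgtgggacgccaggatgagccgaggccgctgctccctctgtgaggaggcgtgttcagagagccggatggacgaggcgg

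All groups were untreated clonal trout of 2 to 3 years raised in recirculating systems, of lines named Swanson and Oregon State University. The labels do not say which line, or which fish, a sample came from. The fish were male apart from the 3 that gave Ovaries. There were 2 samples of Caudal Skeletal Muscle, 4 of the adductor and 4 of the pelvic fin muscle, and 3 of each of the other 20 tissues, called biological replicates in the design text. The 7 tissues titled muscle (22 samples) are called skeletal muscle below, and Heart, Bulbus Arteriosus and Tongue stand with the 16 other tissues (48 samples). RNA extraction differed between tissues, so extraction and tissue cannot be told apart. Total counts ran from 52194 to 269554 per sample, and the 49 pathway genes took between 511 and 46159 of them.

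The fsta probe gave few counts, between 1 and 146 per sample. It lay above a background bound (negative control mean + 2 SD, 8 probes) in 39 of the 70 samples, 17 of 22 in skeletal muscle and 22 of 48 elsewhere. Every sample passed that bound in 8 tissues, namely Caudal, Epaxial, Hypaxial and Pelvic Fin Skeletal Muscle, Tongue, Retina, Testes and Pyloric Caeca. None passed it in 5, namely Red Skeletal Muscle, Liver, Visceral Fat, Bulbus Arteriosus and Gill, where a level is not distinguishable from background. Counting alone leaves a wide margin at this depth, so that the 10 counts of Red Skeletal Muscle 2 carry an exact 95% Poisson interval of 4.80 to 18.4, which covers counting error only.

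Levels below are reference-scaled counts, meaning counts divided by a factor from the reference genes actb, ef1a and tbp that averages 1 (geometric mean) over the samples. That factor had a median of 0.349 in skeletal muscle and 1.72 in the other tissues. Scaling therefore raises muscle values, background included, and lowers the others. Pathway scaling, which uses the 49 pathway genes instead, is set beside it. In 8 samples fewer than 25 of the 49 genes were above the negative controls, and these low-signal samples include Adductor Skeletal Muscle 1, where 7 genes were.

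The probe of the myostatin mstna1 served as a check of the muscle label. It was above the negative controls in 20 of the 22 muscle samples, with 20 to 1851 counts. Outside muscle it also passed in many samples, in every one of Spleen (271, 60 and 39 counts) but in none of Bulbus Arteriosus (1, 1 and 15). Passing this bound therefore does not by itself mark muscle. The library labelled Extraocular Muscle 2 gave 3 mstna1 counts, against 1851 and 1507 in the other Extraocular Muscle samples, although its reference factor of 1.43 was not low. Adductor Skeletal Muscle 1, the sample of low signal named above, gave 11 mstna1 counts. The class difference, the differences among the muscles and the ratio to mstna1 are given below with and without these 2 libraries.

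Among the muscles, fsta was highest in the trunk and tail. Caudal Skeletal Muscle, from the tail region, gave 83 and 33 counts, which scaled to 384 and 256 (mean 320 ± 90.3, SD, n = 2). The authors' deposited table heads this tissue Caudal Epaxial. Epaxial Skeletal Muscle, the dorsal trunk muscle, gave 47, 47 and 94 counts, scaled to 248, 261 and 178 (229 ± 44.6, SD, n = 3). Hypaxial Skeletal Muscle, the ventral trunk muscle, gave 97, 54 and 94 counts, scaled to 309, 197 and 115 (207 ± 97.4, SD, n = 3). The ranges of these 3 tissues overlapped, and a sample with more counts was not always the higher once scaled. Pelvic Fin Skeletal Muscle followed with 29, 46, 45 and 58 counts, scaled to 69.9, 211, 101 and 145 (132 ± 61.2, SD, n = 4). Its highest sample lay below both Caudal samples.

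The remaining muscles were lower and less certain. Red Skeletal Muscle gave 8, 10 and 10 counts, none above the negative controls, and these scaled to 16.3, 109 and 140 (88.5 ± 64.4, SD, n = 3). Its counts were nearly equal, and the reference factors by which they were divided were 0.491, 0.0915 and 0.0714. Adductor Skeletal Muscle, which closes the jaw, gave 6, 7, 28 and 43 counts, scaled to 59.6, 33.3, 73.0 and 64.5 (57.6 ± 17.1, SD, n = 4), and 57.0 ± 20.9 (SD, n = 3) without Adductor Skeletal Muscle 1. Extraocular Muscle gave 113, 13 and 65 counts, scaled to 82.4, 9.11 and 76.8 (56.1 ± 40.8, SD, n = 3). Without Extraocular Muscle 2, whose mstna1 was near background, its mean was 79.6 ± 3.99 (SD, n = 2), and it moved from 7th to 6th in the order of tissues.

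**Figure D1:**
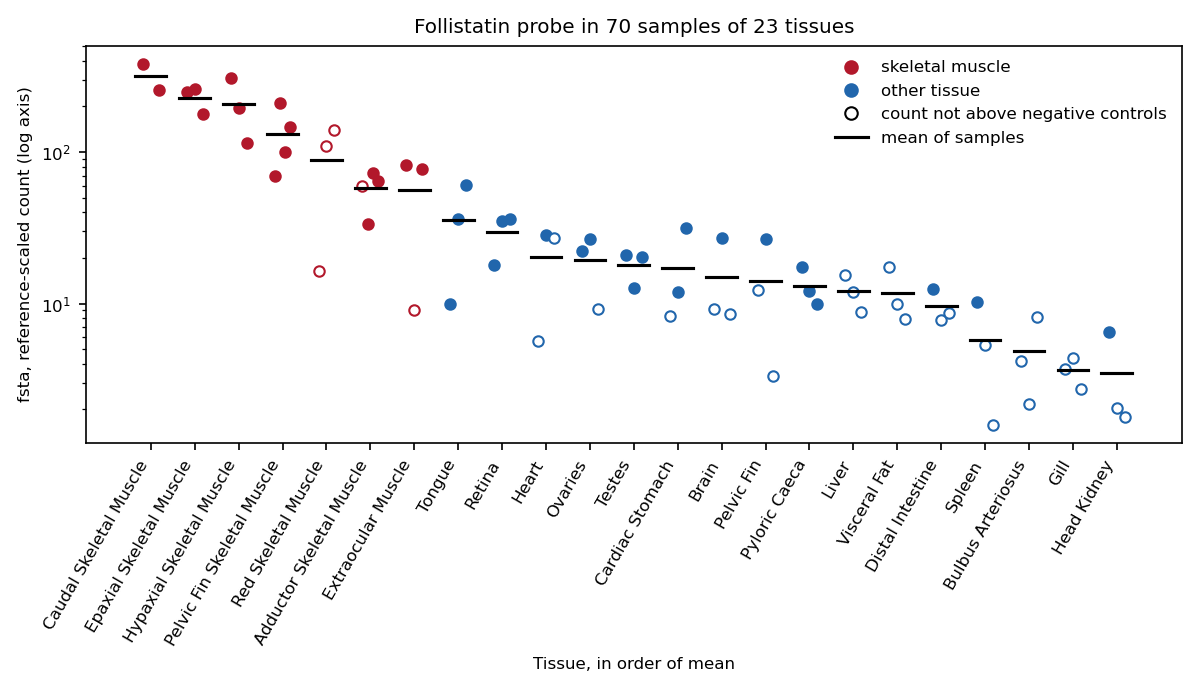
Reference-scaled fsta counts (log axis) in the 70 samples, with tissues in order of their mean (black bars); open circles are counts not above the negative controls. All 7 muscle means, 56.1 to 320, lie above the other means, 3.46 to 35.6, and every tissue's range overlaps that of the next in order. No count of Red Skeletal Muscle, mean 88.5, was above the negative controls. Low reference factors in muscle raise background as well.

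The muscles differed among themselves in fsta (F = 4.02, adjusted p = 0.0177, edgeR's quasi-likelihood test with Benjamini-Hochberg adjustment), and 20.4% of the 49 genes passed that test. The call ended without Caudal Skeletal Muscle 1 (F = 3.21, adjusted p = 0.0564) and held without Extraocular Muscle 2 (F = 3.72) or Adductor Skeletal Muscle 1 (F = 3.70). It also ended when the negative controls were subtracted (F = 2.02, adjusted p = 0.232) or when samples were scaled by the positive controls (F = 2.32, adjusted p = 0.105).

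Caudal Skeletal Muscle stood above the mean of the other 6 muscles, by 1.57 ± 0.54 (SE) on the log2 scale or 2.96-fold (edgeR's quasi-likelihood test, adjusted p = 0.0303). It was the only muscle called against the others of its class for fsta. Of the family of 1127 gene and tissue contrasts 21.8% were called, and for fsta 5 of the 23 tissues, near that share. In Caudal Skeletal Muscle 6 of the 49 genes were called. With 2 samples the call needed both: without the first the difference was 1.24 (adjusted p = 0.295) and without the second 1.83 (adjusted p = 0.0585). It was also lost with positive controls (0.94, adjusted p = 0.431) and with negative controls subtracted (adjusted p = 0.170). In set C of the authors' table, described below, Red Skeletal Muscle is the only other muscle. Against it alone the difference was 1.98 (adjusted p = 0.166). Extraocular Muscle stood at -1.37 ± 0.57 (adjusted p = 0.0801), and at -0.86 without Extraocular Muscle 2. Adductor Skeletal Muscle stood at -1.31 ± 0.52 (adjusted p = 0.0666), and at -1.31 (adjusted p = 0.109) without Adductor Skeletal Muscle 1. Epaxial Skeletal Muscle stood at 0.99 ± 0.48 (adjusted p = 0.143) and passed with pathway scaling (0.98, adjusted p = 0.0355).

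Between single muscles, 2 of the 21 pairs were called for fsta by edgeR's quasi-likelihood test, against 3.3% of all 1029 gene and pair contrasts. Caudal Skeletal Muscle exceeded Adductor Skeletal Muscle 5.51-fold (log2 difference 2.46, adjusted p = 0.0360) and Extraocular Muscle 5.73-fold (2.52, adjusted p = 0.0460). The lowest Caudal sample, 256, lay above every sample of both muscles, whose highest were 73.0 and 82.4. Before scaling the counts of the 3 muscles overlapped. The reference factors were 0.216 and 0.129 in Caudal, 0.101 to 0.666 in Adductor and 0.847 to 1.43 in Extraocular Muscle. Over the alternatives that leave out no single sample, the difference to Extraocular Muscle ran from 0.37 to 2.96. Both calls ended when Adductor Skeletal Muscle 1 or either Caudal sample was left out, and with the replicate number as a block no pair was called. Over all 70 single samples left out in turn, those of other tissues included, the call against Adductor Skeletal Muscle was lost 6 times and that against Extraocular Muscle 36 times. Without Extraocular Muscle 2 the difference to Extraocular Muscle was 2.01 (adjusted p = 0.171). Pathway scaling called 6 pairs, each with Caudal or Epaxial Skeletal Muscle above Adductor, Red or Extraocular Muscle. No neighbours in the order of muscles differed by this test, and their sample ranges overlapped throughout.

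Outside skeletal muscle, Tongue and Retina led. Tongue gave 23, 41 and 102 counts, scaled to 9.98, 35.9 and 61.1 (35.6 ± 25.5, SD, n = 3). Retina, the light-sensing layer of the eye, gave 23, 59 and 56 counts, scaled to 18, 35.2 and 36.2 (29.8 ± 10.3, SD, n = 3). All 6 samples were above the negative controls, and the Tongue samples spanned a wider range than those of Retina. Tongue was 1.67 ± 0.43 (SE) above the mean of the other 15 tissues on the log2 scale, a 3.17-fold difference (edgeR's quasi-likelihood test, adjusted p = 0.00279), and Retina 1.40 ± 0.44 or 2.64-fold (adjusted p = 0.0157). The Tongue call ended without Tongue 3, its highest sample (1.01, adjusted p = 0.201), and the Retina call without Retina 2 (1.26, adjusted p = 0.0927) or Retina 3 (1.24, adjusted p = 0.102). Both calls were also lost with positive controls (adjusted p = 0.194 and 0.126) and by limma on log2(scaled count + 10) (adjusted p = 0.0678 and 0.0913) or + 50 (adjusted p = 0.162 and 0.275). Of the 49 genes, 9 were called in Tongue and 8 in Retina.

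The gonads, the organ in which mammalian follistatin was found, stood in the middle of the order. Ovaries gave 105, 146 and 19 counts, the second being the highest single count of the study, and their reference factors of 4.72, 5.44 and 2.07 brought these to 22.2, 26.8 and 9.18 (19.4 ± 9.16, SD, n = 3). Testes gave 35, 29 and 54 counts, scaled to 21.0, 12.7 and 20.2 (18 ± 4.57, SD, n = 3). The ranges of both gonads overlapped. Neither passed against the other tissues, with differences of 0.75 ± 0.45 (adjusted p = 0.260) for Ovaries and 0.62 ± 0.47 (adjusted p = 0.397) for Testes by edgeR's quasi-likelihood test. Scaled by the positive controls alone, Ovaries were called higher (1.98, adjusted p = 0.00362).

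Heart is built of striated muscle, and Bulbus Arteriosus is the elastic chamber into which the fish heart pumps. Heart gave 2, 33 and 6 counts, scaled to 5.69, 28.3 and 27.1 (20.4 ± 12.7, SD, n = 3), with only the second above the negative controls. Bulbus Arteriosus gave 5, 1 and 6 counts, scaled to 4.20, 2.18 and 8.10 (4.83 ± 3.01, SD, n = 3), none above them. The mstna1 counts of Heart were 2, 122 and 6, so the sample with the most fsta also had the most mstna1, and the part of this in its fsta was not tested. Heart lay below the muscle means but overlapped the lower muscle samples, and neither organ was called against the other tissues (0.84 ± 0.53, adjusted p = 0.281, and -1.34 ± 0.65, adjusted p = 0.143). With pathway scaling Bulbus Arteriosus was called lower (-1.73, adjusted p = 0.00921), 1 of 6 among 16 alternatives leaving out no single sample that called it. Since none of its counts passed the background bound, such a call cannot say how low its fsta is.

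Along the gut, Cardiac Stomach gave 11, 12 and 44 counts, scaled to 8.31, 12 and 31.4 (17.2 ± 12.4, SD, n = 3). Pyloric Caeca, the blind sacs behind the stomach, gave 69, 48 and 24 counts, scaled to 17.3, 12.2 and 9.95 (13.2 ± 3.80, SD, n = 3). Distal Intestine gave 37, 17 and 20 counts, scaled to 12.5, 7.85 and 8.65 (9.66 ± 2.49, SD, n = 3). The 3 gut tissues overlapped and none was called against the other tissues, with differences of 0.57, 0.15 and -0.32. Pyloric Caeca moved from 16th to 8th in the order and was called higher with pathway scaling (1.05, adjusted p = 0.0158).

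The blood-forming organs were low once scaled, with reference factors of 2.53 to 4.68 in Spleen and 3.35 to 4.89 in Head Kidney. Spleen gave 46, 25 and 4 counts, scaled to 10.2, 5.34 and 1.58 (5.71 ± 4.32, SD, n = 3). Head Kidney, the main site of blood cell formation in fish, gave 27, 10 and 6 counts, scaled to 6.54, 2.05 and 1.79 (3.46 ± 2.67, SD, n = 3), the lowest mean of the 23 tissues. In each organ 1 sample was above the negative controls. With pathway scaling Head Kidney was 20th in the order and Bulbus Arteriosus was lowest. Head Kidney was called lower than the other tissues, at -1.88 ± 0.60 (SE) on the log2 scale (edgeR's quasi-likelihood test, adjusted p = 0.0167), a call that ended with pathway scaling (-1.0, adjusted p = 0.0833) and without the second or the third sample. Of 16 alternatives that leave out no single sample, 10 ended it. In Head Kidney 20 of the 49 genes were called. Spleen stood at -1.10 ± 0.55 (adjusted p = 0.155).

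Gill gave 3, 13 and 8 counts, scaled to 3.73, 4.40 and 2.72 (3.62 ± 0.845, SD, n = 3), all within the background. It was called below the other tissues (-1.82 ± 0.63, edgeR's quasi-likelihood test, adjusted p = 0.0288), but not after any 1 of its samples was left out, with adjusted p-values between 0.0662 and 0.130, and the call was lost in 9 of those 16 alternatives. Since no Gill count passed the background bound, the call cannot say how low its fsta is. In Gill 9 of the 49 genes were called. Brain gave 13, 40 and 15 counts, scaled to 9.21, 26.9 and 8.52 (14.9 ± 10.4, SD, n = 3). Pelvic Fin gave 13, 52 and 8 counts, scaled to 12.2, 26.7 and 3.31 (14.1 ± 11.8, SD, n = 3). In Brain and Pelvic Fin 1 sample stood above the others and was the only one beyond the negative controls. That Brain sample gave 619 mstna1 counts, against 17 and 28 in the other Brain samples, and the part of this in its fsta was not tested. Neither was called, with differences of 0.33 ± 0.49 (adjusted p = 0.715) and 0.25 ± 0.49 (adjusted p = 0.797) by edgeR's quasi-likelihood test, and Brain lay below the other tissues with pathway scaling (-0.79, not called) and with DESeq2 (-0.95, adjusted p = 0.0470).

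Liver gave 12, 10 and 14 counts, scaled to 15.5, 11.9 and 8.75 (12.1 ± 3.40, SD, n = 3). Visceral Fat gave 8, 4 and 18 counts, scaled to 17.4, 9.94 and 7.96 (11.8 ± 5.01, SD, n = 3). Both tissues lay within the background, and for neither could a difference from the other tissues be detected at this depth. Over the 16 other tissues fsta varied (F = 3.56, adjusted p = 0.000392, edgeR's quasi-likelihood test), as did 93.9% of the 49 genes, and the F value was the 38th highest of the 49.

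Skeletal muscle as a class held more fsta than the other tissues. The mean of the 7 tissue means was 156 ± 99.7 (SD) against 14.6 ± 8.98 (SD) over the 16 others, and every muscle mean lay above the highest other mean. For Red Skeletal Muscle that mean, 88.5, rests on 3 counts of which none was above the negative controls. Division by a low reference factor raises background as well. The 6 counts of Adductor Skeletal Muscle 1, below its negative control mean of 8.625, scaled to 59.6, above the highest other mean of 35.6. The split of the means therefore does not by itself show signal above background. Single samples overlapped: Adductor Skeletal Muscle 1 and 2, Extraocular Muscle 2 and Red Skeletal Muscle 1 lay inside the range of the other tissues, which was 1.58 to 61.1. On counts summed per tissue the difference was 3.26 ± 0.42 (SE) on the log2 scale, or 9.56-fold (edgeR's quasi-likelihood test, adjusted p = 6.09e-07), the third highest of the 49 genes, of which 55.1% were called higher in muscle. It was 3.30 without Extraocular Muscle 2 and 3.26 without Adductor Skeletal Muscle 1. In whole tissue, fewer cells of a type and less RNA per cell cannot be told apart.

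The size of that difference depended on the scaling, and its direction did not. Raw tissue mean counts overlapped, from 9.33 to 81.7 in muscle and from 4 to 90 elsewhere. With pathway scaling the class means were 60.5 ± 31.2 (SD) and 19.2 ± 10.8 (SD), and the difference was 1.56 (adjusted p = 0.00454), while the median gene moved from 1.10 to -0.36. Tongue, Retina and Pyloric Caeca then lay above the lowest muscle mean, 28.8, which was that of Extraocular Muscle, and 4 muscles remained above the highest other mean, 41.4. Scaled by the spiked positive controls alone, which leave differences in RNA input in place, the difference was 0.91 ± 0.43 and did not pass (adjusted p = 0.0860). As a share of the pathway counts, fsta took 1.67% ± 0.748 (SD, 7 tissues) in muscle and 0.463% ± 0.309 (SD, 16 tissues) elsewhere.

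**Figure D2:**
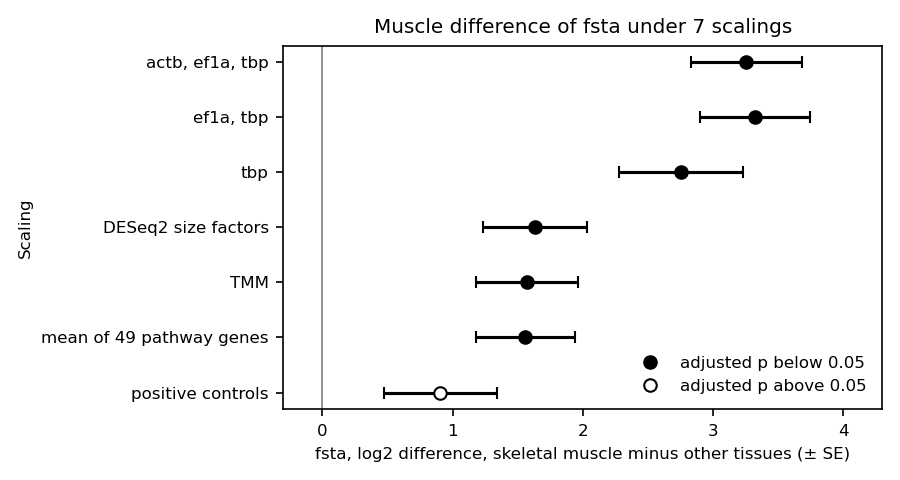
Log2 difference of fsta between 7 skeletal muscles and 16 other tissues (± SE, horizontal axis) under 7 scalings of the samples. The difference lies at 3.26 with the 3 reference genes, at 1.56 with the pathway genes and at 0.91 with the positive controls, which is the only open circle (adjusted p above 0.05).

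A ratio of fsta to another gene of the same sample needs no scaling factor. The log2 ratio of fsta to each of the other 48 genes (counts + 1) was averaged per tissue and compared between the 7 muscles and the 16 others by an exact permutation test, two-sided, adjusted over the 48 ratios. The ratio was higher in muscle for 39 genes, which is 81.2% of them, and lower for 1, mstna1, with a median difference of 1.89. Such a ratio still holds background and depth. Where both counts lie near background, its log2 value is drawn toward 0. Pathway counts of the muscle samples ran from 511 in Adductor Skeletal Muscle 1 to 12946 in Extraocular Muscle 1. The part of this in the 39 calls was not tested. Within the 13 tissues that share the scale of set A, described with the authors' table below, 21 ratios were called higher. The only muscles of set A are Epaxial, Hypaxial and Extraocular Muscle, so fewer splits are possible and a call is harder to reach. Set A also holds other tissues than the whole, and the part of either in the lower number was not tested.

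Over all 48 ratios 81.2% were called higher, with a median difference of 1.89, and the roles are to be read against that share. Every ratio holds the same fsta counts, so the roles are not separate tests. By role, fsta was called higher relative to 12 of the 17 ligand chains and lower relative to 1. Among the ligands it can bind and their relatives, fsta was higher relative to 3 of 4 activin beta A chains (median difference 1.74). It was also higher relative to 4 of 4 beta B chains (2.51), both gdf11 genes (2.46) and mstnb1 among the 3 myostatins. It passed for neither of the 2 beta C chains (0.30). On the receiving side it was higher relative to 7 of 7 type II receptors (1.98), 8 of 10 type I receptors (1.80) and 8 of 10 receptor-regulated and common Smads (1.97). Both probes of bambi, a decoy receptor without a kinase, and both inhibitory Smads showed the same direction (1.22 and 2.04). The highest difference was 3.52, to the type I receptor acvr1ba1.

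**Figure D3:**
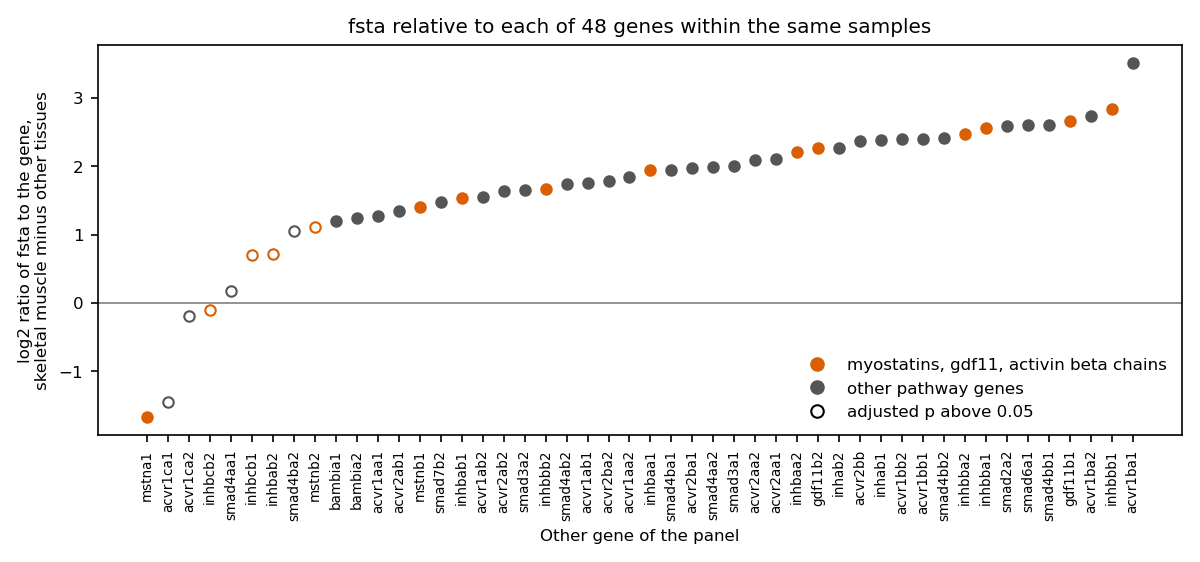
Difference between skeletal muscle and other tissues in the log2 ratio of fsta to each of 48 genes (vertical axis), in order of size; filled circles have an adjusted p below 0.05 and orange marks the myostatins, gdf11 and activin beta chains. The values run from -1.67 for mstna1 to 3.52 for acvr1ba1, and 44 of 48 lie above 0.

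Follistatin and its target mstna1, both high in muscle, did not keep a common ratio. The log2 ratio of fsta to mstna1 averaged -2.13 ± 1.03 (SD, 7 tissues) in muscle and -0.46 ± 1.10 (SD, 16 tissues) elsewhere, a difference of -1.67 (exact permutation test, adjusted p = 0.00569). The difference was -1.77 without Adductor Skeletal Muscle 1 and -1.96 without Extraocular Muscle 2. These libraries were set apart for low mstna1, the divisor of the ratio, so a lower value without them follows from that choice. Within set A, whose only muscles are Epaxial, Hypaxial and Extraocular Muscle, the difference was -1.55 and did not pass (exact permutation test, adjusted p = 0.0629). Over all samples the ratio was lowest in Red Skeletal Muscle, with 9.76 fsta counts per 100 of mstna1, where no fsta count was above the negative controls, and highest in Tongue, with 296 per 100. Probe efficiencies are unknown, so only the change of this ratio between tissues can be read, and many of the counts outside muscle lie near background for both probes.

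Among the muscles, Pelvic Fin Skeletal Muscle had 94.6 fsta counts per 100 of mstna1, the highest of the 7. Its mstna1 was the lowest of the muscles, at 28, 46, 20 and 166 counts, while its fsta was in the middle. In Adductor Skeletal Muscle the value was 13.3 per 100, and 8.13 without Adductor Skeletal Muscle 1. In Extraocular Muscle it was 21.1 per 100, and 5.19 without Extraocular Muscle 2, which placed this tissue lowest of the 7. Without these libraries both values lay below that of Red Skeletal Muscle. Both were set apart for low mstna1, the divisor of this ratio, so leaving them out lowers it. The order and the F values without them depend on that choice and are not separate results. The ratio differed among the muscles by limma's F-test (F = 2.47, adjusted p = 0.0459, over 48 ratios of which 68.8% passed), with F = 4.29 (adjusted p = 0.00299) without Extraocular Muscle 2 and F = 3.04 (adjusted p = 0.0182) without Adductor Skeletal Muscle 1. Leaving out 1 of 16 other single samples raised the adjusted p above 0.05, up to 0.185 without Pelvic Fin Skeletal Muscle 3.

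**Figure D4:**
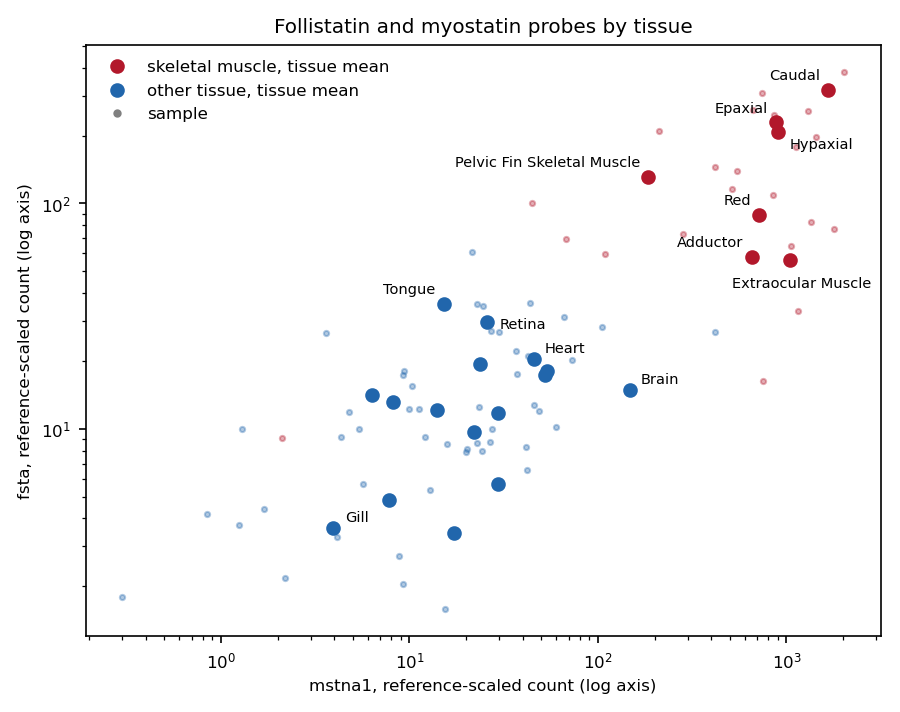
Reference-scaled counts of fsta against mstna1 (both log axes); large points are tissue means and small points samples. Muscle means lie at the upper right, Pelvic Fin Skeletal Muscle has the lowest mstna1 of the muscles (185), and 2 muscle samples lie within the ranges of the other tissues, Extraocular Muscle 2 at an fsta of 9.11 and Adductor Skeletal Muscle 1 at 59.6.

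Likeness to other genes was measured by Pearson's r between tissue means of log2(scaled count + 10), given as a description, since all genes of a sample share its scaling factor. Over 23 tissues the genes most like fsta were the common Smad smad4aa1 (0.94), mstna1 (0.90) and the type I receptor acvr1ca2 (0.87), and the median over 48 genes was 0.61. With pathway scaling these were again the highest, at 0.77, 0.73 and 0.58, with a median of -0.11. By Spearman's rank correlation the same 3 stood at 0.40, 0.62 and 0.48 with pathway scaling, and at 0.78, 0.81 and 0.73 with reference scaling. The first place of smad4aa1 therefore holds for Pearson's r only. With reference scaling the means of muscles and of other tissues form separate groups in fsta, so values within each follow.

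Over the 16 other tissues the highest were the type I receptors acvr1ab2 (0.48) and acvr1ab1 (0.42) and then mstna1 (0.40). Over the 7 muscles they were the decoy receptor bambia1 (0.998), the beta B chain inhbbb2 (0.993) and the beta C chain inhbcb2 (0.984), and with pathway scaling bambia1 (0.994), inhbbb2 (0.992) and smad4aa1 (0.984). Without Extraocular Muscle 2 bambia1 (0.989) and inhbbb2 (0.986) stayed among the highest 3. The other beta B chains stood far lower over the 7 muscles, at -0.79 (inhbba1), -0.36 (inhbbb1) and 0.02 (inhbba2). The other beta C chain, inhbcb1, stood at 0.28. The log2 ratio of fsta to inhbbb2 was 0.40 ± 0.10 (SD) over the 7 muscles and -1.27 ± 1.22 (SD) over the 16 other tissues. That of fsta to bambia1 was -1.53 ± 0.22 (SD) and -2.72 ± 1.34 (SD). Both genes were picked by their r over these same 7 muscles, so the narrow spread of the ratios there is not a separate result.

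The ligands that follistatin can bind or that are related to them (15 probes) had a median r of 0.58 over 23 tissues. All 15 were above 0 with reference scaling, as were all 48 genes, and 5 were with pathway scaling, as were 14 of the 48. With negative controls subtracted the median of the 15 was -0.05 and 7 were above 0, against 37 of the 48. The highest were mstna1 and the beta A chain inhbab2 (0.86), and the lowest were gdf11b1 and gdf11b2 (0.12 each). Over the 7 muscles the median of the 15 was -0.08, against 0.44 over the 48 genes. With pathway scaling these medians were -0.55 and -0.29. With reference scaling mstna1 had an r of 0.58 over the 7 muscles, which was 0.31 without Extraocular Muscle 2 and 0.49 without Adductor Skeletal Muscle 1. Within the muscles, the deviations of 22 samples from their tissue means gave an r of 0.52 with mstna1, below the median of 0.60 over the 48 genes and 34th among them. It was 0.09 without Extraocular Muscle 2, 0.56 without Adductor Skeletal Muscle 1, and 0.08 with pathway scaling. Among the 48 samples of other tissues that value was 0.65, the highest of the 48 genes (median 0.31), and 0.36 with pathway scaling, again the highest. It was 0.62 without Brain 2 and Heart 2, the samples of high mstna1 named above, which were chosen after their values were seen.

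In the authors' deposited table, which holds a normalized signal per gene and tissue with replicates pooled, the order of fsta differs from that of the counts. The signal was matched by the geometric mean of the scaled counts times a constant. The match held within 0.01 (natural log) for 38 to 47 of the 49 genes per tissue, fewest in Gill. In the authors' deposited table the constant took 3 values, which part the tissues into sets. Set A holds 13 tissues, set B 4, and set C Caudal Skeletal Muscle, Red Skeletal Muscle, Heart and Gill. The constant of set C was 2.45 times lower than that of set A. Adductor and Pelvic Fin Skeletal Muscle mix sets A and C, and Adductor Skeletal Muscle 1 was left out of the authors' deposited table.

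The authors' deposited table lists fsta at 406 in Epaxial, 345 in Hypaxial and 230 in Caudal Skeletal Muscle. On the scale of set A, the Caudal value of the authors' deposited table becomes 564 and moves from 3rd to 1st. Red Skeletal Muscle in the authors' deposited table moves likewise from 46.2 to 113, from 9th to 5th, and Heart from 12 to 29.4, from 19th to 12th. On the counts, which carry no such constant, the class difference of fsta was 3.40 within set A and 3.80 within set C (edgeR's quasi-likelihood test, adjusted p = 0.0341 in set C). In set A the muscles are only Epaxial, Hypaxial and Extraocular Muscle. In set C the difference compares only Caudal and Red Skeletal Muscle with Heart and Gill. With the sets as a block, over the 12 possible assignments of the mixed tissues, fsta passed among the muscles each time (largest adjusted p = 0.0305, edgeR's quasi-likelihood test) and no pair of muscles was called. Only the mixed tissues hold samples of both set A and set C, with 1 sample of set C in each. The block rests on these samples, so it cannot separate set from tissue for the other tissues.

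**Figure D5:**
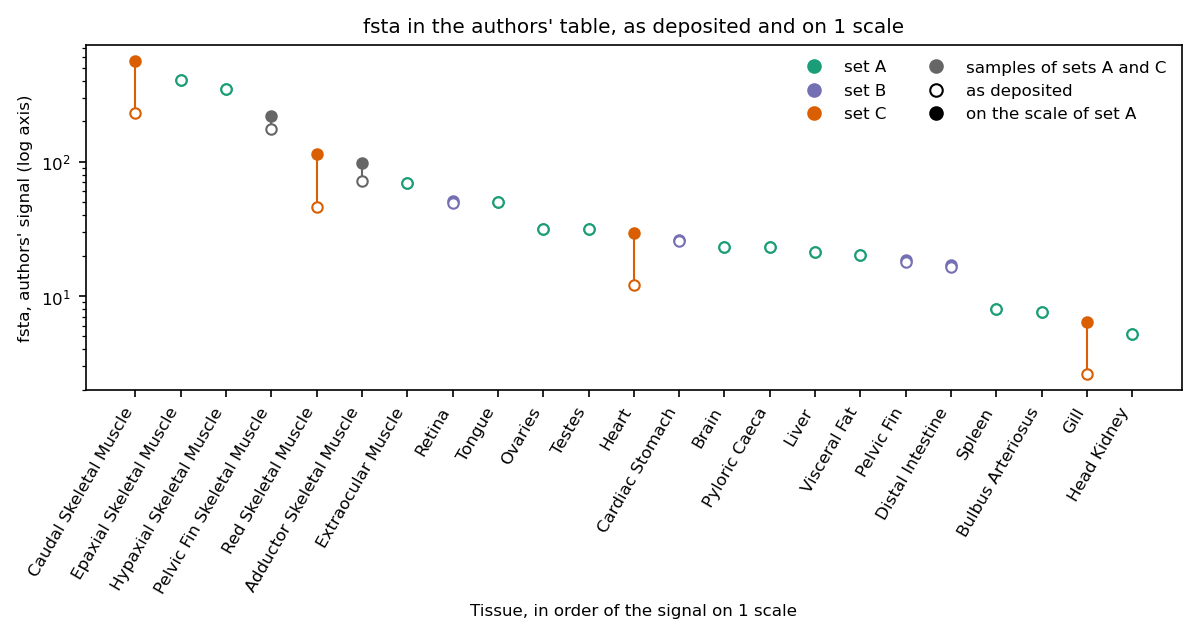
The authors' normalized fsta signal (log axis) for the 23 tissues as deposited (open circles) and after placing all tissues on the scale of set A (filled circles), in order of the latter. The 4 tissues of set C shift upward 2.45-fold, so that Caudal Skeletal Muscle moves from 230 to 564 and becomes the highest.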

How the data were processed

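Barcode counts of 66 probes (49 pathway genes, 3 reference genes, 6 positive and 8 negative controls) in 70 samples were used as the authors deposited them, whole-number counts that were not normalized. The authors also deposited a signal per gene and tissue with replicates pooled, made by an unstated method; it was used for its order and its constants only. Gene identity and chromosomes come from the authors' gene and probe lists, and 49 of 49 identifiers matched RefSeq. No genome build is named in the files or labels, so no coordinates are printed. No column of values was left out (0).

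edgeR 4.0.16 in R 4.3.3 (quasi-likelihood) was fitted to the counts of 49 genes in all samples, with a coefficient per tissue, no replicate block and offsets from actb, ef1a and tbp; the class comparison used counts summed per tissue. Ratios were tested in R with exact permutation tests or with limma 3.58.1, and levels and correlations were computed in Python 3.11.15. p-values were two-sided and Benjamini-Hochberg adjusted over all genes and contrasts of a family, with a threshold of 0.05. They measure the spread between samples, and for the class between tissues, which may share fish. Scripts were tested on simulated data. Alternatives were pathway, TMM, tbp, ef1a with tbp, positive-control and DESeq2 1.42.0 scaling, limma on log2(scaled count + 1, 10 or 50), subtraction of the negative controls, a filter on low counts, the sets, the replicate number as a block, and leaving out samples. The gene, the lists and the tests were chosen with earlier results of these data known. By rule, fsta, mstna1, the 3 most alike genes and the ligand probes of highest and lowest r are named, other genes by list. Chosen after values were seen were inhbbb2 and acvr1ba1 as ends of a range, the other beta B and beta C chains over the muscles, and the libraries set apart. The same replicate numbers showed no clear pairing of samples: 290 of 738 same-number pairs correlated above 0.1, with a median r of 0.03, and 24 of 70 samples were nearest to their own number. Such correlations between tissues cannot exclude that equal numbers mark the same fish. No replicates were copies (lowest chi-squared per degree of freedom 1.60).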

Additional observations from a re-analysis of the deposited data

How the results depend on the processing

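The class difference of fsta kept its direction under every alternative and lost its call under positive-control scaling only (0.91). With samples as units, added after seeing the data, it was 3.39, and 3.37 with the replicate block. Left-out single samples gave 3.13 to 3.37 for the class difference, F from 13.1 to 16.6 among 23 tissues, 3.21 to 4.33 among muscles and 3.03 to 4.03 among other tissues, 4 to 7 tissues called against their class, 0 to 3 muscle pairs, 36 to 40 ratios and F from 1.62 to 4.29 for fsta to mstna1. Among muscles F was 2.32 with positive controls, 2.02 with negative controls subtracted, 2.24 when pathway scaling was added, 4.74 within set A and 4.06 within set C, none past the threshold. Among other tissues F was 0.93 with limma at a pseudocount of 50 and 6.63 within set C. The tissues called, 5 in the text, numbered 2 with positive controls (Ovaries and Bulbus Arteriosus, neither among the 5), 10 with DESeq2, 3 with negative controls subtracted, without low-signal samples, within set A or with the sets as a block at the fewest, and 0 within set C. Muscle pairs called, 2 in the text, numbered 6 with pathway scaling, 7 with TMM, 4 with ef1a and tbp, 8 with DESeq2, and 4, 8 and 12 with limma at pseudocounts of 1, 10 and 50. Pairs numbered 4 with pathway scaling without low-signal samples, a setting added after seeing the data, and 0 with positive controls, negative controls subtracted (also with pathway scaling, added likewise), without low-signal samples, within set A or C, or with the sets as a block. The replicate block left 0 pairs and changed no other call (F = 13.6, 3.53, 3.35 and 2.86, 5 tissues). No paired analysis was possible because tissue means are compared, for the ratios between classes. Ratios called higher numbered 21 within set A, and F for fsta to mstna1 was 2.12 with negative controls subtracted. Brain, at 0.33, was reversed with DESeq2 (-0.95, adjusted p = 0.0470). Of 3835 values of single tissues, pairs and ratios, 3576 kept their direction and side of the threshold, 93 uncalled ones changed sign, 94 lost a call and 71 gained one. The filter on low counts removed no gene. The cause of these changes was not tested. Red Skeletal Muscle and 4 other tissues had no fsta count above background.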
